A study of Lolium arundinaceum with 6 samples.

Results

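Leaf transcripts for the making and the breakdown of abscisic acid (ABA) were followed in heat-stressed tall fescue through 3 unigenes: NCED3 (c155908_g1), ABA2 (c149183_g1) and CYP707A4 (c150585_g1). They were chosen by name from the study's list of hormone genes changed in these libraries. The count table holds 179680 unigenes, and those outside the study's tables had no name here to be chosen by. A unigene is an assembled transcript group that stands for a gene, and each carries the name of its best match in another plant, mostly Arabidopsis. All 3 had enough counts to be tested, as had 28005 unigenes in all. The study asked how transcripts of tall fescue respond to short and long heat, hormone pathways among them. Wild-type (WT) Fire Phoenix II seedlings at an age of 10 days were held at 38 °C for 2 h or 12 h, and untreated seedlings served as controls. Leaves gave 2 libraries per condition, 6 in all. The files used here hold 1 pair of control libraries, which was set against both heat times, while headings in the study's tables can be read as a control for each time. Since the labels place the controls at 0 h, the length of heating and the hour of the day cannot be told apart.

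ABA is the hormone that closes stomata and switches on stress genes when leaves lose water. It is made from carotenoids in the plastid: 9-cis-epoxycarotenoid dioxygenase (NCED) cleaves the carotenoid to xanthoxin, which is the rate-limiting step in most tissues, ABA2 turns xanthoxin into abscisic aldehyde in the cytosol, and an aldehyde oxidase finishes the hormone. The main route of breakdown is hydroxylation at the 8' carbon by cytochrome P450 enzymes of the CYP707A family, so that the hormone level depends on both sides.

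The 3 chosen unigenes, which stand on both sides, rose in heated leaves, by different amounts at the 2 times. The breakdown unigene CYP707A4 was already 13.4-fold higher after 2 h, and its further difference between 12 h and 2 h, of 1.34-fold, was not called. The synthesis unigenes NCED3 and ABA2 were 3.68-fold and 2.50-fold higher after 2 h and went on to 21.1-fold and 8.19-fold after 12 h. A further breakdown unigene, CYP707A1, was at 0.51-fold of the controls after 2 h, which was not called, and at 2.15-fold after 12 h. The aldehyde oxidase unigene AAO4 was below the controls at both times. The difference in timing between the unigenes was tested through ratios within each library, where 2 libraries per condition allow no exact permutation p below 0.333. Values are CPM, which is counts scaled to a common library size by TMM, with the SD over n = 2 libraries. To be called changed, a unigene had to differ 2-fold or more, with an adjusted p no larger than 0.05, in edgeR's quasi-likelihood test with Benjamini-Hochberg adjustment over all unigenes tested. Bulk leaf RNA was measured, so fewer cells of a type and less RNA per cell cannot be told apart for any unigene.

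**Figure D1:**
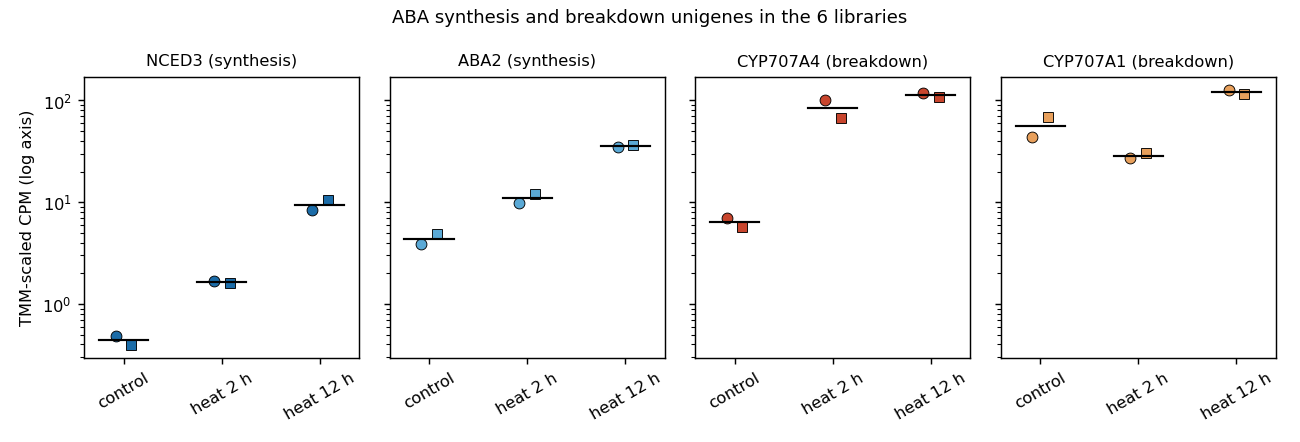
Level of each unigene in the 6 libraries (TMM-scaled CPM, log axis), with circles for replicate 1, squares for replicate 2 and bars for the mean of the 2 libraries of a condition; unigene lengths were not used, so heights may be compared within a panel only. CYP707A4 is near its highest level at 2 h (114 CPM at 12 h and 84.7 CPM at 2 h), NCED3 and ABA2 climb through both times, and CYP707A1 is lowest at 2 h.

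The libraries were alike in size, with 6349776 to 7891567 counts. At that depth 3 counts in 1 library equal 0.359 to 0.508 CPM. The heat label was checked with 2 unigenes: the heat shock unigenes HSP21 and HSC70-1 together stood at 18990 to 19510 CPM after 2 h and 27440 to 28030 CPM after 12 h, against 474 to 487 CPM in the controls. The tissue label was checked with 9 photosynthesis unigenes (LHCB1.3, PSAO, PSAK and PSBS), of which all 9 were detected in the controls, 8 after 2 h and 9 after 12 h. Their summed level, most of it from PSAO, 1 PSAK unigene and PSBS, was 7206 to 9077 CPM after 2 h and 4138 to 4309 CPM after 12 h, against 12610 to 12810 CPM in the controls. Single members went both ways: of 8 tested, 4 were called down and none up at 2 h (0 up with an unadjusted p in edgeR and in DESeq2 too), and at 12 h 4 were down and 2 up, a LHCB1.3 unigene (c138665_g1) and a PSAK unigene (c178872_g1) with at most 4 counts in any library before 12 h. The root unigene RFNR2 ranged over 19.1 to 23.1 CPM after 2 h and 9.88 to 9.99 CPM after 12 h, against 37.5 to 41.4 CPM in the controls. Both check lists moved with the heat, and their part in the results below was not tested. The 2 libraries of 2 h of heat differed more from each other (SD of the log2 difference 0.50 over 9108 unigenes with at least 10 CPM) than those of 12 h (0.24) or the controls (0.24).

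NCED3, the enzyme that commits carotenoid to ABA, was near the detection limit in unheated leaves. It had 0.483 and 0.392 CPM in the controls (3 counts in each library), 1.67 and 1.61 CPM after 2 h (14 and 12 counts) and 8.47 and 10.5 CPM after 12 h (50 and 69 counts). The conditions did not overlap, and each step up was larger than the gap between replicates. After 2 h the level averaged 1.64 ± 0.0440 CPM, against 0.438 ± 0.0646 CPM in the controls. The log2 fold change was 1.88 (SE 0.56, adjusted p = 0.0212, higher in 2 of 2 libraries), with a 95% interval of 0.67 to 3.09. This call rests on few counts: the ratio of summed counts per library size was 3.80, with an exact 95% counting interval of 1.53 to 11.3 that covers counting error only. It was lost without control replicate 1 (adjusted p = 0.0818), without control replicate 2 (0.139), with no filter on low counts (0.0624) and in DESeq2 (0.0760), over which the log2 fold change stayed between 1.71 and 2.00.

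After 12 h NCED3 averaged 9.48 ± 1.43 CPM, against 0.438 ± 0.0646 CPM in the controls. The log2 fold change was 4.40 (SE 0.45, adjusted p = 6.62e-06), and the summed-count ratio was 22.0, with a counting interval of 9.82 to 61.2. This rise was larger than that of 94.2% of the unigenes tested. Between the heat times the difference was also called, at a log2 fold change of 2.52 for 12 h over 2 h (SE 0.36, adjusted p = 0.000184, interval 1.74 to 3.29), and both 12 h libraries lay above both 2 h libraries. The mean level at 2 h was 17.3% of that at 12 h. One more unigene came from the same assembly component, c155908_g2, with 19 counts over all libraries and at most 7 in a library, too few for a test.

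ABA2, the short-chain dehydrogenase that acts on xanthoxin, followed the same course at a smaller fold. Its level was 3.87 and 4.83 CPM in the controls (24 and 37 counts), 9.92 and 12.1 CPM after 2 h (83 and 90 counts) and 35.2 and 36.8 CPM after 12 h (208 and 242 counts). Again no condition overlapped with another. After 2 h it averaged 11.0 ± 1.53 CPM, against 4.35 ± 0.684 CPM in the controls, a log2 fold change of 1.32 (SE 0.25, adjusted p = 0.00152, interval 0.79 to 1.86). After 12 h it averaged 36.0 ± 1.10 CPM, a log2 fold change over the controls of 3.03 (SE 0.24, adjusted p = 6.35e-07, interval 2.52 to 3.55). Between 12 h and 2 h the log2 fold change was 1.71 (SE 0.21, adjusted p = 6.66e-05, interval 1.25 to 2.17). At 2 h the mean level was 30.6% of that at 12 h. All 3 calls for ABA2 held in each of the 15 alternatives run. Among these, unadjusted p-values and no fold limit are looser rules on the same fit, under which a call cannot be lost.

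CYP707A4, an ABA 8'-hydroxylase, was high at both heat times. It had 6.93 and 5.75 CPM in the controls (43 and 44 counts), 101 and 68.0 CPM after 2 h (848 and 506 counts) and 119 and 108 CPM after 12 h (704 and 713 counts). The 4 heated libraries were far above both controls, and the 12 h libraries lay above the 2 h libraries by a margin smaller than the gap between the 2 h replicates. After 2 h the mean was 84.7 ± 23.6 CPM, against 6.34 ± 0.833 CPM in the controls, a log2 fold change of 3.74 (SE 0.24, adjusted p = 2.5e-07, interval 3.23 to 4.26). Only 1108 of the unigenes tested, this one included, had a log2 fold change as large at 2 h, so it was higher than 96.0% of them. After 12 h the mean was 114 ± 7.67 CPM, a log2 fold change over the controls of 4.17 (SE 0.24, adjusted p = 5.7e-08, interval 3.65 to 4.69). Both calls held in each of the 15 alternatives run, which again include the looser rules that cannot lose a call.

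Between 12 h and 2 h, CYP707A4 was not called: the log2 fold change was 0.42 (SE 0.19, adjusted p = 0.0910), with an interval of 0.00 to 0.85, or up to 1.80-fold. Without heat 2 h replicate 1 it was 0.75 and without heat 2 h replicate 2 it was 0.20. The interval thus spans almost no change at one end and a change just under the fold limit at the other. With RLE size factors in place of TMM the log2 fold change was 0.52. Its adjusted p in edgeR was then 0.0442, and only the fold limit kept it from a call. The mean level at 2 h was 74.4% of that at 12 h.

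**Figure D2:**
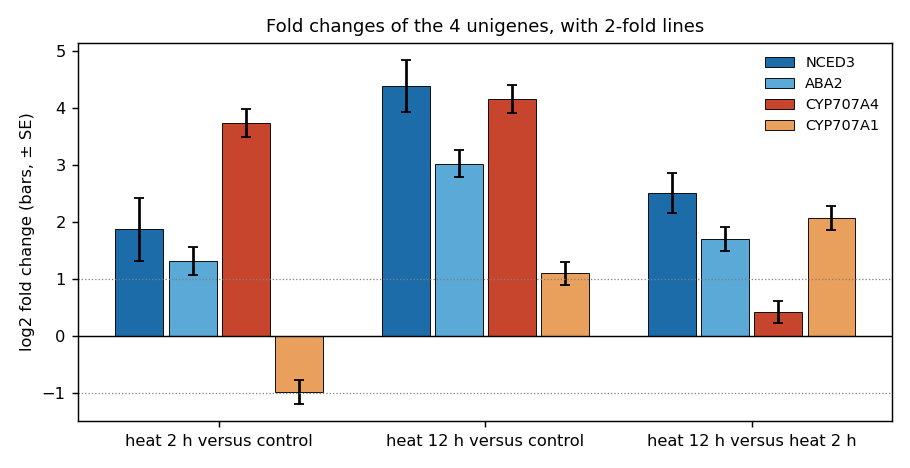
Log2 fold change (bars) with its standard error (lines) for the 3 chosen unigenes and CYP707A1 in each comparison, with dotted lines at a 2-fold change. CYP707A4 has the highest bar of the 4 at 2 h (3.74) and the lowest between 12 h and 2 h (0.42), where NCED3 reaches 2.52 and ABA2 1.71.

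Read against the whole table, heat moved many unigenes. At 2 h the 3 chosen unigenes were all called up, in a table where 15.1% were called up and 8.98% down. At 12 h they were again all called up, beside 25.3% called up and 23.3% down over all unigenes. Of the 3, the synthesis pair was called higher at 12 h than at 2 h and CYP707A4 was not, beside 16.2% called higher and 19.6% lower. With library totals in place of TMM the split over all unigenes was 4971 up and 1822 down at 2 h, in place of 4236 and 2514, and between the heat times 3280 were called higher and 7327 lower, in place of 4526 and 5502. The calls for the 3 chosen unigenes were the same under both scalings. Their median log2 fold change was 1.88 at 2 h, 4.17 at 12 h and 1.71 between the heat times, while the median over all unigenes tested was 0.05, 0.00 and -0.09. The unigenes came from the study's own list of hormone genes changed in these libraries, so these counts are no independent evidence of a direction.

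CYP707A1 (c153742_g1), the other 8'-hydroxylase on that list, ran a different course. Its level was 43.5 and 68.6 CPM in the controls (270 and 525 counts), 27.0 and 30.4 CPM after 2 h (226 and 226 counts) and 127 and 115 CPM after 12 h (750 and 756 counts). The conditions did not overlap, but the controls differed between replicates more than the heated pairs did. At 2 h the log2 fold change over the controls was -0.97 (SE 0.21, adjusted p = 0.00396), just under the 2-fold limit, so it was not called. It was called down without control replicate 1, at -1.28, and without heat 2 h replicate 2, at -1.08, and with RLE size factors, at -1.01, among 6 of 15 alternatives that called it. Without control replicate 2 it was -0.62 (adjusted p = 0.109). At 12 h it rose, with a log2 fold change of 1.11 (SE 0.21, adjusted p = 0.000625). That call was lost without control replicate 1, at 0.81, and with library totals in place of TMM, at 0.99. Between 12 h and 2 h it was called higher, with a log2 fold change of 2.08 (SE 0.21, adjusted p = 1.95e-05, interval 1.61 to 2.54). That call held in all 15 alternatives, of which the looser rules could not lose it.

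The make-up of the breakdown counts differed between conditions. CYP707A4 gave 13.7% (95% Wilson interval 10.4 to 18.0) and 7.73% (5.81 to 10.2) of the summed CYP707A4 and CYP707A1 counts in the controls. It gave 79.0% (76.4 to 81.3) and 69.1% (65.7 to 72.4) after 2 h, and 48.4% (45.9 to 51.0) and 48.5% (46.0 to 51.1) after 12 h. The shares depend on transcript length, which was not used, but their order between conditions does not. The summed level, in which the longer transcript weighs more, was 50.4 and 74.3 CPM in the controls, 128 and 98.3 CPM after 2 h and 246 and 223 CPM after 12 h. These sums and shares were looked at after the values of the single unigenes were known, and no test was run on them.

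Transcripts of synthesis and breakdown were then set against each other within each library, as the log2 ratio of counts with 0.5 added to each. The libraries measure RNA only, so ABA itself, enzyme amounts and enzyme activity were not measured here. Length and library scaling drop out when the ratio of 1 unigene to 1 other is compared between conditions. For NCED3 over CYP707A4 the ratio was -3.64 and -3.67 in the controls, -5.87 and -5.34 after 2 h and -3.80 and -3.36 after 12 h. The 2 h libraries were thus the lowest, while the 12 h libraries fell on both sides of the controls. The mean difference of 2 h from the controls was -1.95 on the log2 scale, a 3.87-fold lower ratio, and 12 h was 2.03 above 2 h. The difference between 12 h and the controls was 0.07, well within the replicate spread. It turned to -0.15 without heat 12 h replicate 2 and to -0.09 with 1 count added in place of 0.5. NCED3 had 3 counts in each control library, each with a 95% counting interval of 0.62 to 8.77. The counts are thus too few to place the 12 h ratio above, below or level with the controls.

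ABA2 over CYP707A4 gave -0.83 and -0.25 in the controls, -3.35 and -2.48 after 2 h and -1.76 and -1.56 after 12 h. No conditions overlapped, and the 12 h libraries lay between the other groups. The mean difference from the controls was -2.38 at 2 h and -1.12 at 12 h, and 12 h was 1.26 above 2 h (0.83 without heat 2 h replicate 1). NCED3 over ABA2 was -2.53 and -2.86 after 2 h and -2.05 and -1.80 after 12 h, against -2.81 and -3.42 in the controls. At 12 h it was 1.19 above the controls, and at 2 h, where the libraries overlapped those of the controls, it was 0.42 above (0.12 without control replicate 2 and 0.73 without control replicate 1). With 2 libraries against 2, the exact two-sided permutation test cannot go below p = 0.333, and 7 of the 9 differences computed had that value (adjusted p = 0.428), so the ratios are a description.

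The direction at 2 h depended on which breakdown unigene was counted. With CYP707A4 and CYP707A1 summed, NCED3 over breakdown was -6.21 and -5.87 after 2 h, against -6.48 and -7.35 in the controls, so the mean difference was 0.87 in place of -1.95. ABA2 over the same sum was -3.69 and -3.02 after 2 h, against -3.68 and -3.93 in the controls, where the groups overlapped (difference 0.45). After 12 h the NCED3 ratio was -4.85 and -4.40 and the ABA2 ratio -2.80 and -2.60, with differences from the controls of 2.29 and 1.10. Length does not drop out of such a sum, and the lengths were not used, so CYP707A4 counts were also weighted 2 and 4 times in it, a choice made after the values were seen. At 2 h the difference from the controls was then 0.22 and -0.41 for NCED3 and -0.20 and -0.84 for ABA2, so its sign depended on the weight. At 12 h it was 1.87 and 1.39 for NCED3 and 0.68 and 0.20 for ABA2. The permutation test again could not pass, with a smallest p of 0.333.

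Set against CYP707A1 alone, also chosen after the values were seen, the ratios ran otherwise. NCED3 over CYP707A1 was -6.27 and -7.23 in the controls, -3.96 and -4.18 after 2 h and -3.89 and -3.44 after 12 h. ABA2 over CYP707A1 was -3.46 and -3.81 in the controls, -1.44 and -1.32 after 2 h and -1.85 and -1.64 after 12 h. Both ratios were above the controls in all 4 heated libraries, and that of ABA2 was highest at 2 h. Both ratios at 2 h were thus below the controls against CYP707A4 and above them against CYP707A1.

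**Figure D3:**
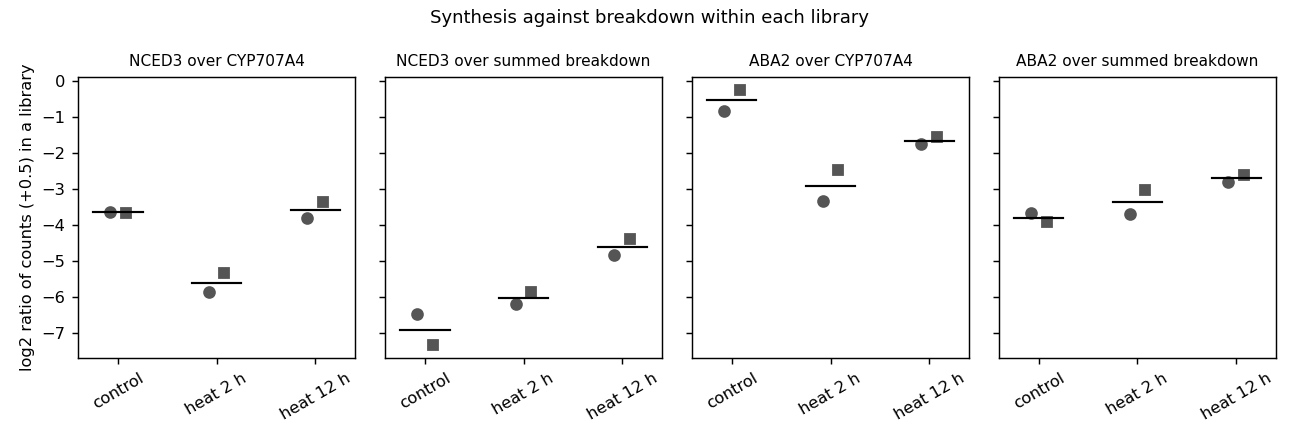
Log2 ratio of a synthesis unigene to CYP707A4 alone, or to CYP707A4 and CYP707A1 summed, within each library (circles replicate 1, squares replicate 2, bars the mean). Against CYP707A4 the 2 h libraries are lowest for NCED3 (mean -5.61) and ABA2 (mean -2.92), whereas against the unweighted sum both means are highest at 12 h (-4.62 and -2.70); the sum depends on the lengths of its 2 unigenes.

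Carotenoid enzymes and an aldehyde oxidase from the study's tables of changed unigenes went both ways. Of these 4 unigenes, none was called up and 2 were called down at 2 h, where 15.1% of all unigenes tested were up and 8.98% down. At 12 h 1 was called up and 3 down, where 25.3% of all were up and 23.3% down, so the single rise is at the share of the whole table. The count of those up at 2 h was also 0 in edgeR with an unadjusted p and in DESeq2. Z-ISO (c147790_g1), a carotene isomerase early in carotenoid synthesis, had 42.6 and 35.5 CPM after 2 h and 97.7 and 102 CPM after 12 h, against 45.4 and 46.5 CPM in the controls. It rose at 12 h, with a log2 fold change of 1.12 (SE 0.16, adjusted p = 0.00011). LUT5 (c154773_g1), a carotenoid ring hydroxylase known from lutein synthesis, fell by 1.25 (log2) after 2 h (SE 0.23, adjusted p = 0.00129) and fell by 1.15 after 12 h (SE 0.23, adjusted p = 0.00107).

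NPQ1 (c151527_g1), the violaxanthin de-epoxidase, which turns violaxanthin back to zeaxanthin and so away from ABA, had 56.2 and 58.0 CPM after 2 h and 27.9 and 36.2 CPM after 12 h, against 107 and 108 CPM in the controls. It fell by 1.74 (log2) after 12 h (SE 0.17, adjusted p = 5.05e-06), and its log2 fold change at 2 h was -0.91, under the fold limit. AAO4 (c155997_g1), an aldehyde oxidase of the family whose member AAO3 finishes ABA in Arabidopsis, had 17.2 and 22.8 CPM after 2 h and 11.0 and 13.1 CPM after 12 h, against 49.5 and 51.6 CPM in the controls. It fell by 1.34 (log2) after 2 h (SE 0.20, adjusted p = 0.000272) and fell by 2.07 after 12 h (SE 0.21, adjusted p = 5.37e-06). AAO4 was thus lower in all 4 heated libraries than in either control, while NCED3 and ABA2 were higher in all 4.

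Beyond the enzymes, 26 unigenes of ABA breakdown, perception and signalling were on the study's hormone list, of which 25 were tested. At 2 h, 7 were called up and 5 down, where 15.1% and 8.98% of all unigenes tested were (4 up without control replicate 1, 9 down without heat 2 h replicate 2). At 12 h, 12 were called up and 10 down, where 25.3% and 23.3% of all were (7 up without heat 12 h replicate 1). DESeq2 called 6 higher and 5 lower than in the controls after 2 h. After 12 h it called 11 higher and 7 lower. Between the heat times 9 were called higher and 5 lower, where 16.2% and 19.6% of all were (3 lower without control replicate 2, heat 2 h replicate 1 or heat 12 h replicate 1). Their median log2 fold change was -0.17 at 2 h and 1.05 at 12 h. The study chose them on these libraries, so the counts are not independent evidence.

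By role the counts are small, and no test compared the roles. The shares of all unigenes tested, for each count that follows, are those just given (15.1% up and 8.98% down at 2 h, 25.3% up and 23.3% down at 12 h). None of the 5 receptor unigenes of the PYL family was called up at either time (0 with an unadjusted p in edgeR and 0 in DESeq2 as well), and 2 fell at 2 h and 5 at 12 h (1 and 3 in DESeq2). PYL5 (c141504_g1) had 14.6 and 13.5 CPM after 12 h, against 127 and 122 CPM in the controls (log2 fold change -3.15, SE 0.18, adjusted p = 4.52e-08). Phosphatases of some kinds hold ABA signalling off until receptors bind them, and those listed were not sorted by kind. Of 7 tested, 4 rose at 2 h, and 5 rose and 1 fell at 12 h, with the same counts in DESeq2. PAPP2C (c142410_g1) was the unigene that fell (log2 fold change -3.19 at 12 h, SE 0.24, adjusted p = 5.59e-07). HAI3 (c151730_g1) reached 7.89 and 4.43 CPM after 2 h and 65.5 and 66.0 CPM after 12 h, against 1.45 and 1.57 CPM in the controls (log2 fold change at 12 h 5.42, SE 0.30, adjusted p = 4.49e-08).

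Of 5 kinase unigenes, 1 rose at 2 h, near the 15.1% of the whole table, and 3 rose and 1 fell at 12 h, the fall near the 23.3% of the whole table and absent in DESeq2. OST1 (c156184_g1), the kinase that drives stomatal closure in Arabidopsis, had 1758 and 1554 CPM after 2 h and 2651 and 2572 CPM after 12 h, against 15.5 and 16.8 CPM in the controls (log2 fold change 6.68 at 2 h, SE 0.17, adjusted p = 3.78e-10). As for CYP707A4, its difference between 12 h and 2 h was below the fold limit (log2 fold change 0.66, SE 0.13, adjusted p = 0.00152). Another OST1 unigene (c146214_g1) was not called at 2 h (log2 fold change 0.02, SE 0.18, adjusted p = 0.947). At 12 h that unigene was called up (log2 fold change 1.41, SE 0.18, adjusted p = 3.94e-05). Of 4 bZIP factors, 1 rose and 1 fell at 2 h, and 3 rose and 1 fell at 12 h, the fall again near the whole-table share. DESeq2 called 0 up at 2 h and 2 up at 12 h. The one that fell, AREB3 (c144203_g1), had 4.06 and 2.13 CPM after 12 h, against 12.1 and 11.8 CPM in the controls (log2 fold change -1.95, SE 0.36, adjusted p = 0.000601). Another AREB3 unigene (c145597_g1) went the other way and was called up in edgeR at both times. Its log2 fold change was 1.16 at 2 h (SE 0.37, adjusted p = 0.0318) and 1.11 at 12 h (SE 0.38, adjusted p = 0.0252).

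Both magnesium chelatase unigenes (ABAR), which serve chlorophyll synthesis, fell at both times. ABAR (c156266_g2) had 746 and 738 CPM after 12 h, against 3659 and 3609 CPM in the controls (log2 fold change -2.29, SE 0.15, adjusted p = 1.24e-07). The GRAM family unigene (c146503_g1) had 47.5 and 39.9 CPM after 2 h and 8.47 and 9.27 CPM after 12 h, against 19.5 and 11.6 CPM in the controls, and was called up at 2 h alone. Of 5 unigenes named for the ABA importer ABCG40, none was called up at either time (0 by the same other rules), while 3 fell at 2 h and 4 at 12 h, against 8.98% and 23.3% of all unigenes (2 and 2 in DESeq2). Of 3 dehydrin and LEA unigenes, which protect drying cells, 2 rose at 2 h (1 in DESeq2), and 1 rose and 1 fell at 12 h, where 25.3% and 23.3% of all unigenes did.

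**Figure D4:**
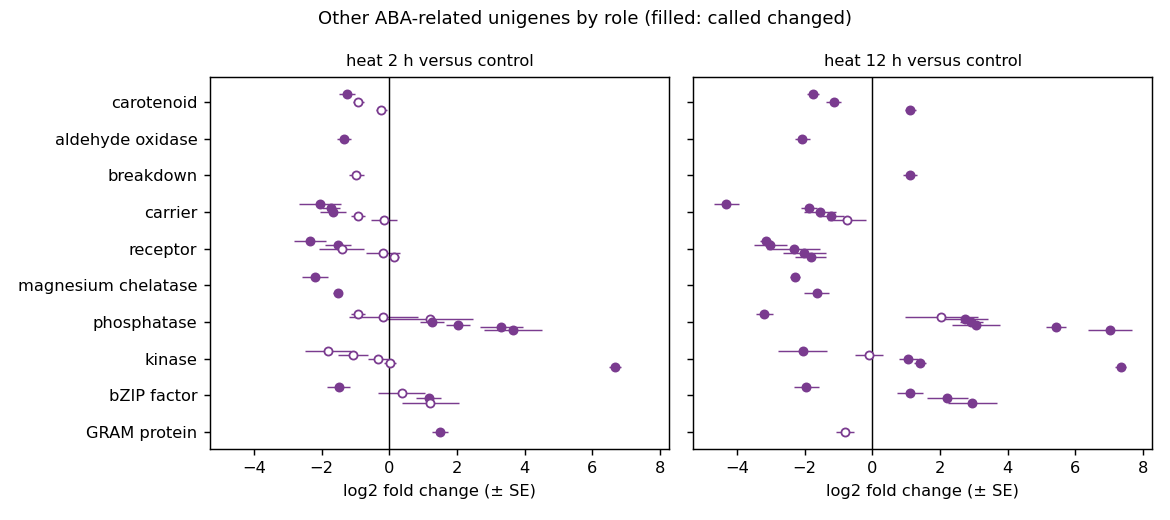
Log2 fold change with its standard error for the tested unigenes of the other ABA list, the carotenoid and aldehyde oxidase list and the ABCG40 list, by role, at 2 h (left) and 12 h (right). Filled points were called changed, and the dehydrin and LEA unigenes are not shown. All 5 receptors lie below 0 at 12 h, while 5 of the 7 phosphatases tested were called up.

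The unigenes whose course was most like each of the 3 were sought among 804 tested unigenes that had a mean of at least 10 CPM and a name in the study's tables, by Pearson's r of log2(CPM + 1) over the 6 libraries. The tables hold changed unigenes, so high values were common: 145 candidates exceeded an r of 0.95 with NCED3, 142 with ABA2 and 133 with CYP707A4. For NCED3 the closest were an acid phosphatase-like unigene (c141997_g1, r = 0.998), a Clp protease family unigene (c154655_g1, r = 0.997) and a DNAse I-like unigene (c156679_g2, r = 0.997). For ABA2 they were the methyl-CpG-binding MBD10 (c151302_g1, r = 0.9996), an HCP-like unigene (c150846_g1, r = 0.998) and an RNA-binding KH domain unigene (c150908_g1, r = 0.998). For CYP707A4 they were a unigene of unknown function (c140916_g1, r = 0.999), the heat shock factor HSFA6B (c152640_g1, r = 0.999) and an F-box unigene (c149592_g1, r = 0.999).

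HSFA6B averaged 266 CPM after 2 h and 516 CPM after 12 h, against 6.0 CPM in the controls. The unigene c141997_g1, nearest to NCED3, averaged 14.1 CPM after 2 h and 45.9 CPM after 12 h, against 8.86 CPM in the controls. Among themselves, NCED3 and ABA2 had an r of 0.985, and CYP707A4 had 0.797 with NCED3 and 0.853 with ABA2. These values describe 6 libraries in 3 groups that share scaling and depth. With library totals in place of TMM, 2 of the 3 nearest unigenes of NCED3 stayed, and 1 of 3 for ABA2 and for CYP707A4.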

How the data were processed

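RNA from leaves of 6 seedling samples was sequenced, 2 per condition. Reads were assembled by the authors with Trinity, and the deposited values are expected counts per unigene, unscaled. The paper names RSEM for these values, whereas the submitters' processing notes name Bowtie2 2.2.3, TopHat2 2.0.12, HTSeq 0.6.1 and DESeq 1.18.0, so the counting tool is uncertain and near-identical gene copies may share reads. Of all values, 0.157% were not whole, none in the 3 chosen unigenes.

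Counts were rounded, filtered with filterByExpr (minimum count 10) and scaled by TMM. All 6 libraries were fitted in edgeR 4.0.16 (R 4.3.3) by glmQLFit and glmQLFTest with 1 coefficient per condition, and p-values were adjusted over 28005 unigenes, which hold 97.7 to 98.4% of the counts. The SE was taken as the absolute log2 fold change divided by the root of F, and intervals use the degrees of freedom of the fit. The method was tested on simulated data. Changes were put only into unigenes above a minimum mean count, with the mean over all libraries as the level without a change. Each unigene had the same spread in all conditions. The shares called thus need not hold for a unigene with few control counts, such as NCED3, or for the wider spread of the 2 h pair. True 2-fold rises were called in 18 of 40 unigenes at 2 h and 16 of 40 at 12 h. True 4-fold rises were called in 40 and 39 of 40, and true falls to 0.5-fold in 12 and 14 of 40. Changes near the fold limit can thus be missed. P-values reflect only the spread among these libraries, as an estimate per unigene that all conditions share and that is moderated over all unigenes. The wider spread of the 2 h pair thus has no estimate of its own in the tests that use it. The 2 replicates, which the paper calls biological, carry no further description in the labels.

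The chosen unigenes and the lists were set with earlier results of these data known. Named unigenes are the 3 chosen, CYP707A1, the carotenoid and aldehyde oxidase unigenes, the smallest adjusted p at 12 h per role, the 3 most alike in pattern, and others of the same assembly component. Also named are PAPP2C and another OST1 and AREB3 unigene, whose course differed from that of the unigene named for the role. ABA2 stands under breakdown in the study's list and was placed with synthesis here by its known role. Alternatives were RLE size factors, library totals, each library left out, a replicate block, DESeq2 1.42.0, the 4 libraries of a comparison fitted alone, both a looser filter (1 count in all) and a stricter one (10 in each library), unadjusted p-values and no fold limit. For ratios they were a pseudocount of 1, summed breakdown counts, each library left out and, added after seeing the data, a weighted sum and CYP707A1 alone. Sequences of the unigenes were not used here. The authors' growth and physiology measurements were not analysed here.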

Additional observations from a re-analysis of the deposited data

Results flagged for a closer look

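The difference between the 2 time points was called for 3 of the 4 synthesis and breakdown unigenes, by the direct test of 12 h against 2 h in edgeR. The log2 fold change between the times was 2.52 for NCED3 (adjusted p = 0.000184), 1.71 for ABA2 (adjusted p = 6.66e-05) and 2.08 for CYP707A1 (adjusted p = 1.95e-05). Each was higher in 2 of 2 libraries at 12 h than in both at 2 h. For CYP707A4 the same test gave 0.42 (adjusted p = 0.0910), though its 12 h libraries also lay above both 2 h libraries.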

How the results depend on the processing

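All calls for ABA2, those for CYP707A4 against the controls and those for NCED3 at 12 h kept their direction and their side of the threshold in every alternative run for them. Unadjusted p-values and no fold limit could not lose a call, since they loosen the rule on the same fit. For NCED3 there were 14 alternatives, since it fails a filter of at least 10 counts in every library. The rise of NCED3 at 2 h was not called with no filter beyond 1 count (log2 fold change 1.85) or in DESeq2 (1.88), and ranged over 1.71 to 2.00 with each library left out. The ratio of NCED3 to CYP707A4 at 12 h against the controls was -0.094 with a pseudocount of 1 count and -0.15 to 0.29 with each library left out. With CYP707A4 and CYP707A1 summed it was 2.29, and the same ratio was 0.87 at 2 h and 1.42 between the heat times, while ABA2 gave 0.45 at 2 h and 1.10 at 12 h. With CYP707A4 weighted 2 and 4 times in that sum, added after seeing the data, NCED3 gave 0.22 and -0.41 at 2 h, 1.87 and 1.39 at 12 h and 1.65 (2 times) between the times, and ABA2 gave -0.20 and -0.84 at 2 h and 0.68 and 0.20 at 12 h. With CYP707A1 in place of CYP707A4, also added then, NCED3 gave 2.68, 3.08 and 0.40, and ABA2 2.25, 1.89 and -0.36, for 2 h, 12 h and between the times. These settings change only the breakdown unigene or its weight.

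At least 10 counts in every library left fewer unigenes to test and gave 2001 up and 1261 down at 2 h (4236 and 2514 with filterByExpr), 2984 and 3026 at 12 h (7078 and 6531) and 1702 and 2514 between the heat times (4526 and 5502). The 26 other ABA unigenes then gave 4 up and 3 down at 2 h (7 and 5), 6 and 5 at 12 h (12 and 10) and 4 and 3 between the times (9 and 5). Other counts that moved by over 1.5 times, with causes not tested, were those down at 2 h with no fold limit (4150) and without heat 2 h replicate 2 (3804), and those lower at 12 h than at 2 h in DESeq2 (3442) and without heat 12 h replicate 1 (3612). In the other ABA list 8 were down at 2 h with no filter beyond 1 count, and 3 were lower at 12 h than at 2 h with that filter and in DESeq2.

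Library totals in place of TMM moved the median change (log2) over the whole table to 0.20 at 2 h, -0.11 at 12 h and -0.36 between the times, in place of 0.05, 0.00 and -0.09, and changed no call of the 3 chosen unigenes. Same-numbered libraries share only a number (correlations of their deviations -0.05, 0.05 and -0.04). With the replicate block NCED3 was at 1.89, ABA2 at 1.33 and CYP707A4 at 3.72 at 2 h, with no call changed, and 3950 unigenes were up and 2390 down at 2 h. Among the 3 chosen unigenes depth limits NCED3 most, at 3 counts in each control library.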
